A study of Mus musculus with 4 samples.

Results

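The genes described are 10 of the 22631 genes counted in sorted immune cells of mouse tumours. They were taken as a named list of liver X receptor (LXR) and lipid handling genes: Nr1h3, Lpl, Apoe, Abca1, Abcg1, Plin2, Fabp5, Cd36, Trem2 and Ch25h. The rule used no measured value, although the list was drawn up with earlier results of these data known. LXR alpha, the product of Nr1h3, is a nuclear receptor that binds oxidised cholesterol (oxysterols), pairs with a retinoid X receptor and turns on genes that move cholesterol out of the cell. In macrophages its best known targets are the exporters Abca1 and Abcg1 and the lipoprotein Apoe, and Lpl is also a target. Macrophages that take up dead cells and lipoproteins store the surplus lipid in droplets coated by the Plin2 protein.

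The cells came from IL-12p40-IRES-EYFP mice, which carry a yellow fluorescent reporter of the interleukin-12 p40 chain in the anti-CD40 and untreated groups alike. Flank tumours of the MC38 line, a mouse colon carcinoma, had grown for 7 days when mice received 5 mg/kg of agonist anti-CD40 antibody by the intraperitoneal route or were left untreated, and were taken 2 days later. CD40 is carried by dendritic cells, macrophages and B cells. Live CD45+ cells of 2 anti-CD40 tumours and 1 untreated tumour went into inDrops, which isolates cells in droplets and counts RNA molecules by their unique molecular identifiers (UMIs). The single untreated tumour limits every comparison: UMIs were summed per tumour, the fit had 1 residual degree of freedom, and it borrowed the spread of the treated tumours for the untreated one. The labels name no control antibody, so an effect of antibody injection as such cannot be told apart from that of CD40 agonism.

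Promoters are shown for 3 of the 7 members with a listed promoter: the receptor gene Nr1h3, the cholesterol exporter gene Abca1, and the droplet coat gene Plin2. Each line holds the 250 bases before a RefSeq start site, the first listed where a gene has more (GRCm38.p6, minus strand, written 5′ to 3′ on the gene's strand). They lie at chr2:91195036-91195285 for Nr1h3, chr4:53159896-53160145 for Abca1 and chr4:86670060-86670309 for Plin2. Capitals mark matches to a direct repeat of the nuclear receptor half-site AGGTCA, found on the opposite strand.
Nr1h3: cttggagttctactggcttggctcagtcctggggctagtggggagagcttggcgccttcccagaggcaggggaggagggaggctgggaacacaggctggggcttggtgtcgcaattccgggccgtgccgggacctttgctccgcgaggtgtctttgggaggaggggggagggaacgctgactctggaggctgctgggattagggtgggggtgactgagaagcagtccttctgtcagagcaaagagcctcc
Abca1: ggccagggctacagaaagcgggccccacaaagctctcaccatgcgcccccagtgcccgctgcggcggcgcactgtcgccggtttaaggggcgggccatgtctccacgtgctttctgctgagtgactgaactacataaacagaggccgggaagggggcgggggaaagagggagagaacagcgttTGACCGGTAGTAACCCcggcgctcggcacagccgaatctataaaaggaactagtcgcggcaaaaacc
Plin2: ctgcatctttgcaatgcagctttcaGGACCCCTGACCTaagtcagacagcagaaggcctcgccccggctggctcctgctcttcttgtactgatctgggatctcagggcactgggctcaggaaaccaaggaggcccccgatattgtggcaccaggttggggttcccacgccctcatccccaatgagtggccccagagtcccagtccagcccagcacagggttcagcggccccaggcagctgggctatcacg

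The search covered both strands of windows of 250 bases before and 50 after a start site. A direct repeat spaced by 4 bases, the arrangement LXR is known to prefer, was allowed 3 mismatches, and such matches were present in 7189 of 32851 promoters (21.9%). Among 10 promoters of the 7 members found in the RefSeq table, the Abca1 promoter was the only such match, starting 67 bases before the start site. With at most 2 mismatches no member matched, against 3.02% of all promoters, and the wider limit was set after that result was seen. A repeat spaced by 1 base, as peroxisome proliferator-activated receptors bind, was allowed 2 mismatches and was present in 3.86% of promoters, among them those of Plin2 (from 225 bases before the start site) and Cd36 (from 63). Both arrangements use the same half-site, and no member window held both. The windows of Nr1h3, Ch25h, Apoe and Trem2 held neither, so the 2 printed promoters with capitals do not stand for the members at large. Promoters of Lpl, Abcg1 and Fabp5 are not shown.

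The data held 4440 cells and 3961141 UMIs in 12 libraries, 8 of anti-CD40 and 4 of untreated origin, and no cell barcode was shared between libraries. Depth moved with the groups: the median was 979 and 865 UMIs per cell in anti-CD40 tumours 1 and 2, against 433 in the untreated tumour. Levels below are therefore scaled to the UMI total of the cell type and given as counts per 1000000 UMIs (CPM), and shares of cells with a UMI are given after thinning each cell to 300 UMIs. Their 95% intervals, exact Poisson for levels and Clopper-Pearson for shares, cover counting error only. The authors' annotation pools monocytes, macrophages and dendritic cells, which are called myeloid cells here, with neutrophils kept apart. The make-up of that class moved with the groups. Summed markers of C1q macrophages (6 genes) stood at 3562 and 10423 CPM in anti-CD40 tumours 1 and 2, against 13958 CPM untreated. Monocyte markers (5 genes) stood at 5511 and 1522 CPM against 2374 CPM, mature dendritic cell markers (5 genes) at 1768 and 1134 CPM against 465 CPM, and neutrophil markers (7 genes) at 2182 and 853 CPM against 228 CPM. All genes of these 4 lists had UMIs. Adipocyte markers, which matter for Lpl and Cd36, had 2 and 1 UMIs in the treated tumours and 0 in the untreated one, with Adipoq, Cidec and Cfd at 0 in every tumour. Endothelial markers stood at 55.4 and 57.1 CPM against 102 CPM (33 and 83 UMIs against 58), with Cldn5 and Gpihbp1 at 0.

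Most of the members were myeloid transcripts. Nr1h3, Lpl, Trem2, Cd36 and Ch25h had 411, 848, 381, 43 and 39 UMIs in myeloid cells over the 3 tumours, and at most 4 UMIs each in T and NK cells together. Neutrophils held 1 Nr1h3 UMI in 215 cells of anti-CD40 tumour 2 and 0 in 700 cells of anti-CD40 tumour 1, where a count of 0 allows up to 4.21 CPM (3 counts). Lpl, Cd36, Trem2 and Ch25h were at 0 in neutrophils of all 3 tumours, although in the 49 untreated neutrophils a count of 0 allows up to 128 CPM (3 counts). Plin2, Abca1, Abcg1 and Fabp5 were shared by myeloid cells and neutrophils. Plin2 stood higher in neutrophils than in myeloid cells, at 1344 and 2231 CPM in the anti-CD40 tumours against 724 CPM in the untreated tumour. Intervals of the neutrophil and myeloid levels of Plin2 did not overlap in either treated tumour and overlapped in the untreated tumour (422 to 1160 against 328 to 431 CPM). Abca1 was at 109 and 162 CPM in treated neutrophils and at 83.9 and 201 CPM in treated myeloid cells, and the intervals overlapped within each tumour. These levels describe cells that the authors typed by their expression, so no test was made between types.

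**Figure D1:**
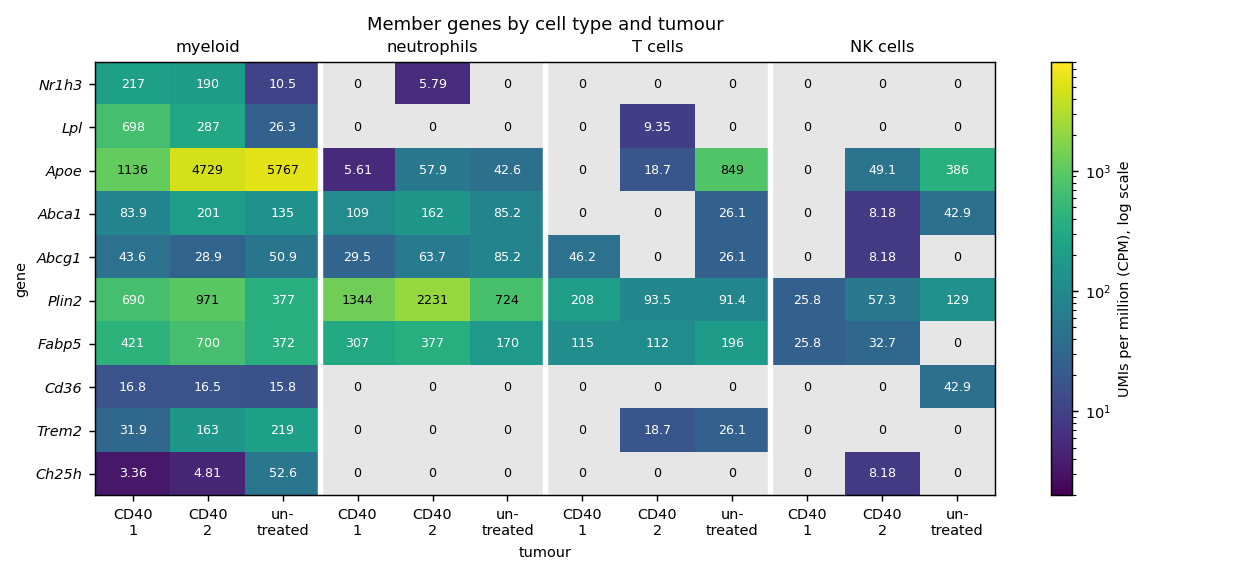
Level of each member gene (rows, CPM on a logarithmic colour scale, value printed in each field) in 4 cell types of anti-CD40 tumours 1 and 2 and the untreated tumour (columns); grey fields had no UMI. Nr1h3 stands at 217 and 190 CPM in treated myeloid cells and at 10.5 CPM in untreated ones, and Plin2 has its highest level, 2231 CPM, in neutrophils of anti-CD40 tumour 2.

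In myeloid cells the receptor gene and the lipase gene had ratios above 10 in each treated tumour, with some counting intervals reaching below 10. The oxysterol-making enzyme gene Ch25h was lower, and the classical export targets of LXR did not pass the test. Of 9 members tested, 2 rose (Nr1h3 and Lpl), 1 fell (Ch25h) and 6 did not pass, where 0.169% of the 7099 genes tested rose and 0.239% fell. By plain direction, 4 members were higher in both treated tumours and 4 were lower in both, where the shares over all genes tested were 34.8% and 37.1%. Abca1 was the member whose direction differed between the treated tumours. Cd36 was too low to be tested. Cells that carried markers of a second cell type made up 15.8% and 6.69% of treated and 0.88% of untreated myeloid cells. These shares were counted before thinning, so the lower depth of the untreated cells can enter them, and its part was not tested. The 3 calls held without such cells. DESeq2, run as an alternative, called Nr1h3 and Lpl, and 4 members had an unadjusted p under 0.05.

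Nr1h3 had 129 UMIs (217 CPM, 181 to 257) and 276 UMIs (190 CPM, 168 to 213) in anti-CD40 tumours 1 and 2, against 6 UMIs (10.5 CPM, 3.86 to 22.9) in the untreated tumour. The 8 treated libraries ran from 112 to 304 CPM and the 4 untreated libraries from 5.41 to 17.6 CPM, so that the groups did not overlap. The ratio to the untreated tumour was 20.6-fold (9.2 to 57.1) and 18-fold (8.17 to 49.5) in anti-CD40 tumours 1 and 2. In the fit across genes Nr1h3 rose by 4.26 ± 0.56 on the log2 scale (SE, edgeR quasi-likelihood F test, adjusted p = 0.00177). Within pool 1 the log2 change was 4.58 and within pool 2 it was 3.88. These are the sequencing pools that held treated and untreated cells, and the other pools held anti-CD40 tumour 2 alone. Among cells thinned to 300 UMIs, 28 of 419 (6.68%) and 64 of 1263 (5.07%) treated myeloid cells held an Nr1h3 UMI, against 2 of 855 (0.234%) untreated ones. T cells, at medians of 778 and 651 UMIs against 475.5, had none in 47 and 127 treated or 124 untreated thinned cells. Unthinned, the myeloid shares were 19.6% and 13.5% against 0.528%, at medians of 1058.5 and 921.5 UMIs against 425. Exons of Nr1h3 (chromosome 2, 91184061 to 91202834, GRCm38) overlap those of Gm13783 on the same strand, so its count is uncertain to that extent. The call was lost without pool 2 (adjusted p = 0.061) and held under the other 10 alternatives that gave a p, with adjusted p of 0.0331 or lower.

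Lpl encodes lipoprotein lipase, which frees fatty acids from circulating triglyceride. It had 416 UMIs (698 CPM, 633 to 769) and 417 UMIs (287 CPM, 260 to 316) in anti-CD40 tumours 1 and 2, against 15 UMIs (26.3 CPM, 14.7 to 43.4) in the untreated tumour. Treated libraries ran from 233 to 786 CPM and untreated libraries from 16.2 to 47.5 CPM without overlap, and the treated tumours did not overlap each other either. The ratio to the untreated tumour was 26.5-fold (15.9 to 47.8) and 10.9-fold (6.53 to 19.6) in anti-CD40 tumours 1 and 2. Lpl rose by 4.19 ± 0.63 on the log2 scale (edgeR, adjusted p = 0.0176), with 5.33 within pool 1 and 3.98 within pool 2. The call was lost when the shallowest 10% of cells were dropped (adjusted p = 0.116), without pool 2 (0.167) and without pool 4 (0.0612), and its adjusted p ran from 8.49e-10 to 0.167 over 11 alternatives.

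Ch25h encodes cholesterol 25-hydroxylase, which makes an oxysterol that can act as an LXR ligand. Its counts were small: 2 UMIs (3.36 CPM, 0.407 to 12.1) and 7 UMIs (4.81 CPM, 1.93 to 9.91) in anti-CD40 tumours 1 and 2, against 30 UMIs (52.6 CPM, 35.5 to 75.1) in the untreated tumour. Treated libraries ran from 0 to 10.1 CPM and untreated ones from 31.6 to 68.8 CPM, so that these groups did not overlap either. The ratio was 0.0638 (0.00739 to 0.251) and 0.0914 (0.0339 to 0.212) in anti-CD40 tumours 1 and 2. Ch25h fell by 3.51 on the log2 scale (SE 0.65, edgeR, adjusted p = 0.0214), and within pool 1 the change was -3.0. Within pool 2 both treated libraries held 0 Ch25h UMIs, against 4 and 7 UMIs in the untreated libraries, so no fold is given there. The call did not hold in 6 of 10 alternatives that gave a p, among them thinned cells (log2 change -2.11, adjusted p = 0.639) and each of the 4 left-out pools, and DESeq2 gave no adjusted p. Exons of Ch25h (chromosome 19, 34473778 to 34475164) overlap Gm26902 on the other strand, and the use of strand in counting is not given in the sources used here.

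Plin2 and Fabp5, the genes of a droplet coat protein and of a carrier of fatty acids within the cell, were higher in both treated tumours but did not pass the test over all myeloid cells. Plin2 stood at 690 CPM (625 to 760) and 971 CPM (921 to 1023) in anti-CD40 tumours 1 and 2, against 377 CPM (328 to 431) in the untreated tumour. Its libraries ran from 629 to 1014 CPM in treated and from 357 to 432 CPM in untreated samples, which is a gap without overlap. The log2 change of Plin2 was 1.18 ± 0.44 (edgeR, adjusted p = 0.408, unadjusted p = 0.0162), with 0.84 within pool 1 and 0.75 within pool 2. Nr1h3, Lpl and Plin2 were the 3 of 9 members with every treated library above every untreated one, where 3.72% of all genes tested were so placed. Ch25h was the 1 member with every treated library below, where 4.35% were. The 4 libraries of each tumour are technical repeats, so this gap is no replicate test. Fabp5 stood at 421 CPM (371 to 477) and 700 CPM (657 to 744), against 372 CPM (324 to 426) in the untreated tumour. Its log2 change was 0.64 ± 0.45 (edgeR, adjusted p = 0.739), the first treated tumour overlapped the untreated one, and within pool 1 the change was -0.55.

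**Figure D2:**
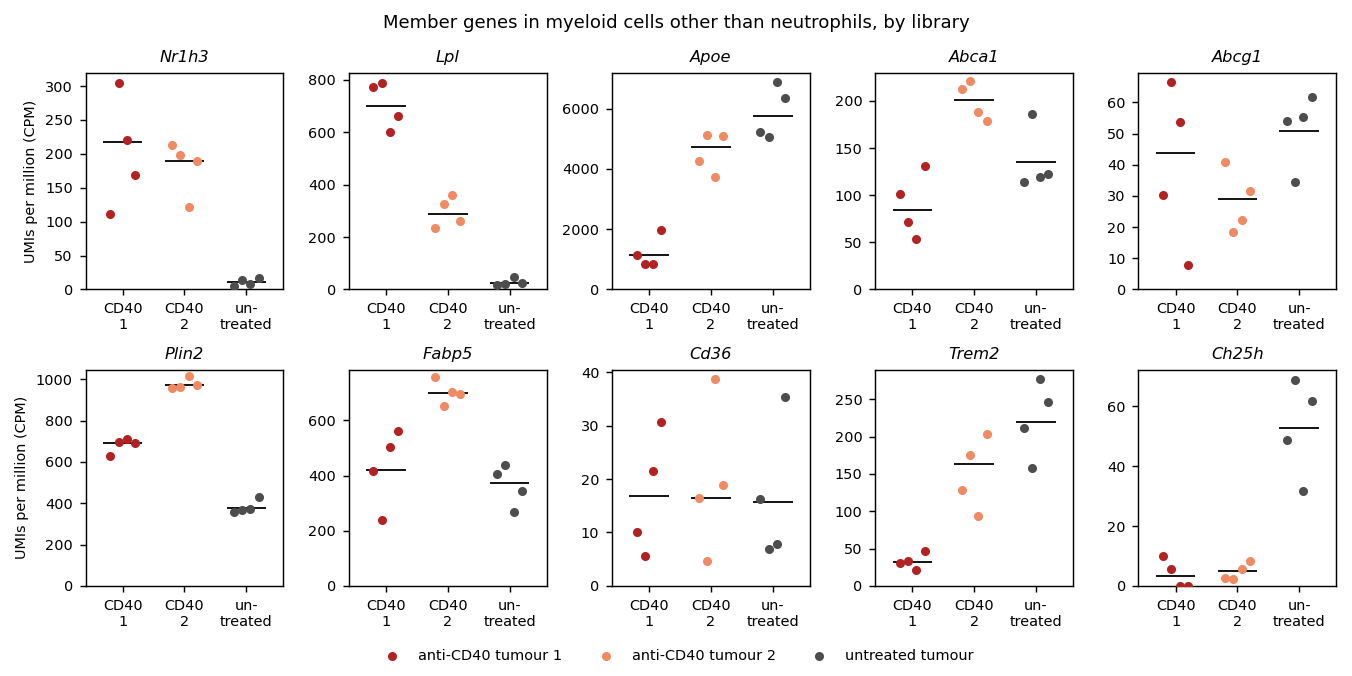
Level of each member (CPM, linear axes from 0) in myeloid cells other than neutrophils; each point is a library (4 per tumour), the bar is the sum over the tumour, and the tumours run from anti-CD40 1 and 2 to untreated. Nr1h3, Lpl and Plin2 have all treated libraries above all untreated ones, Ch25h has all below, and Apoe and Trem2 are low mainly in anti-CD40 tumour 1.

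Apoe and Trem2, genes of a cholesterol-carrying lipoprotein and of a lipid-sensing receptor of macrophages, were low in anti-CD40 tumour 1 and nearer to the untreated level in anti-CD40 tumour 2. Apoe stood at 1136 CPM (1052 to 1225) and 4729 CPM (4618 to 4842) in anti-CD40 tumours 1 and 2, against 5767 CPM (5572 to 5968) untreated. Trem2 stood at 31.9 CPM (19.2 to 49.8) and 163 CPM (143 to 185), against 219 CPM (183 to 261). Their log2 changes were -0.89 ± 1.0 and -1.03 ± 1.25 (edgeR, adjusted p = 0.859 and 0.876). Within pools 1 and 2, which held anti-CD40 tumour 1 as their treated cells, the changes were -2.51 and -2.41 for Apoe and -2.59 and -3.11 for Trem2. The spread between the treated tumours was larger than the mean difference from the untreated tumour for both genes. C1q macrophage markers were also lower in anti-CD40 tumour 1, as given above, and their part in these levels was not tested over all myeloid cells.

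The exporter genes Abca1 and Abcg1 did not pass the test. Abca1, which loads cholesterol onto apolipoprotein A-I, stood at 83.9 CPM (62.3 to 111) and 201 CPM (179 to 226) in anti-CD40 tumours 1 and 2, against 135 CPM (107 to 169) in the untreated tumour, which lay between them. Abcg1, which exports cholesterol to high-density lipoprotein, stood at 43.6 CPM (28.5 to 63.9) and 28.9 CPM (20.8 to 39.0), against 50.9 CPM (34.1 to 73.1), and its libraries overlapped. Their log2 changes were 0.17 ± 0.59 and -0.51 ± 0.46 (edgeR, adjusted p = 0.949 and 0.799). The sign of Abca1 turned negative without anti-CD40 tumour 2 (-0.75), as did its values within pool 1 (-0.88) and pool 2 (-0.57), and Abcg1 was at 0.18 within pool 1. Cd36, a scavenger receptor for fatty acids and oxidised lipoproteins, had 10 and 24 UMIs (16.8 and 16.5 CPM) in the treated tumours and 9 UMIs (15.8 CPM) in the untreated one. The ratio of Cd36 was 1.06 (0.388 to 2.96) and 1.04 (0.469 to 2.55) by counting error, so a change within these bounds was not detectable at this depth.

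Myeloid cells were then split by C1qa, C1qb and C1qc, genes of complement made by macrophages, to hold the kind of cell closer to constant. Cells thinned to 300 UMIs with at least 2 UMIs of these genes were called C1q-positive and cells with 0 C1q-negative, which are ranges of a count and not cell types. C1q-positive cells numbered 98 of 419 (23.4%) and 696 of 1263 (55.1%) in anti-CD40 tumours 1 and 2, against 552 of 855 (64.6%) in the untreated tumour. Between the gates lay 42, 169 and 69 cells with 1 UMI, and 29, 67 and 281 cells were too shallow, in anti-CD40 tumours 1 and 2 and the untreated tumour. Among C1q-positive cells 3 of 9 members tested rose (Nr1h3, Lpl and Plin2) and 1 fell (Ch25h), where 1.68% and 0.996% of the 5424 genes tested did.

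In C1q-positive cells Nr1h3 stood at 282 CPM (199 to 389) and 197 CPM (168 to 231) in anti-CD40 tumours 1 and 2, against 18.4 CPM (6.75 to 40.0) untreated. All 6 untreated Nr1h3 UMIs of the myeloid class fell in this gate. Its log2 change was 3.69 ± 0.57 (edgeR, adjusted p = 6.95e-08). Lpl stood at 412 and 269 CPM against 18.4 CPM, with a log2 change of 4.19 ± 0.55 (edgeR, adjusted p = 4.47e-11). Plin2, which did not pass over all myeloid cells, rose here: 824 CPM (676 to 994) and 1008 CPM (939 to 1081) against 380 CPM (316 to 453). Its log2 change was 1.36 ± 0.35 (edgeR, adjusted p = 0.00936), and the call was lost without a filter on low counts (0.0797). Ch25h had 2 and 6 UMIs against 23, and fell by 2.82 on the log2 scale (SE 0.73, edgeR, adjusted p = 0.00816). That call held in the 4 alternatives run for this gate. They did not include thinned counts or left-out pools, where the Ch25h call over all myeloid cells was lost. Apoe (2981 and 6539 CPM against 7544 CPM), Trem2 (61.0 and 218 CPM against 270 CPM), Fabp5, Abca1 and Abcg1 did not pass. In this fit, and in those of neutrophils, T cells and NK cells, edgeR estimated infinite prior degrees of freedom, so the p-values take the variance shared over genes as known. The kind of cell was not constant within the gate: C1q macrophage markers stood at 10035 and 16614 CPM against 20435 CPM. Monocyte markers within the gate stood at 2539 and 1087 CPM against 941 CPM, and neutrophil markers at 351 and 772 CPM against 233 CPM. Their part in these results was not tested.

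C1q-negative cells gave the same direction for the receptor and the lipase. Nr1h3 had 80 UMIs in 279 cells (197 CPM) and 79 UMIs in 398 cells (170 CPM) of anti-CD40 tumours 1 and 2, against 0 UMIs in 234 cells of the untreated tumour. Taking 3 counts as the limit that the untreated count of 0 allows, Nr1h3 was at least 8.92-fold and 7.71-fold higher. Lpl stood at 808 CPM (723 to 901) and 321 CPM (272 to 377), against 36.8 CPM (12 to 85.9). Both rose (2 of 8 members tested, against 0.243% of 6161 genes), Nr1h3 with adjusted p = 4.13e-05 and Lpl with 0.000124 (edgeR). Neither call held with RLE scaling (0.0593 and 0.192) or without a filter on low counts (0.809 each). Plin2 stood at 618 and 925 CPM against 412 CPM and did not pass. Monocyte markers in this gate stood at 6762 and 2178 CPM against 6179 CPM, and mature dendritic cell markers at 2545 and 3219 CPM against 1208 CPM. Neutrophil markers stood at 2723 and 1035 CPM against 206 CPM there. The part of these markers in the results was not tested.

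**Figure D3:**
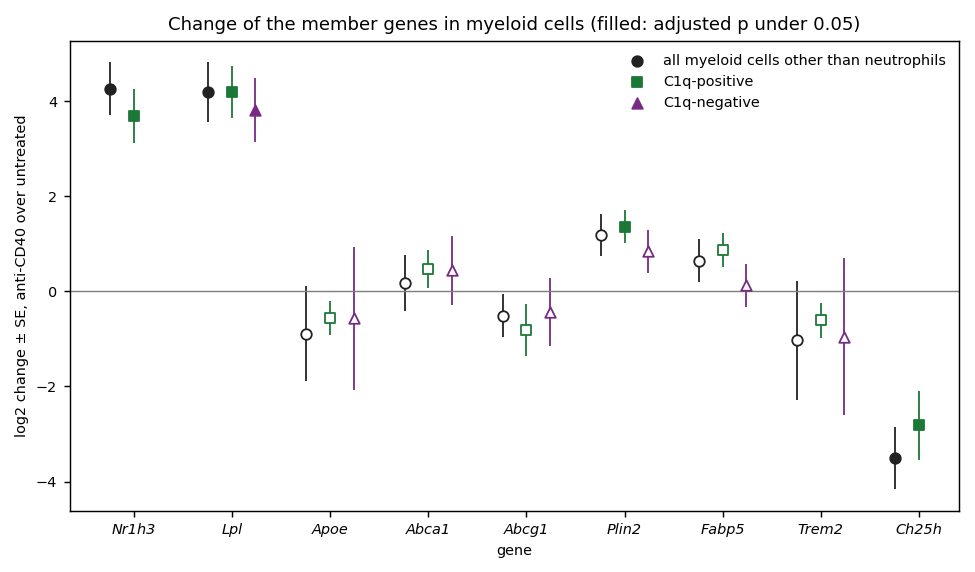
Log2 change ± SE of each tested member, anti-CD40 over untreated, in all myeloid cells other than neutrophils, in C1q-positive and in C1q-negative cells; filled symbols passed adjusted p of 0.05. Nr1h3 and Lpl lie near 4, Plin2 is filled in C1q-positive cells alone, and Nr1h3 in C1q-negative cells is left out because its untreated count was 0.

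Fabp5 stood apart from Nr1h3 and Lpl when myeloid cells were split by other markers, a description made after the values were seen. Mature dendritic cell markers (at least 2 thinned UMIs) were held by 47 and 68 treated and 27 untreated cells. In them Fabp5 stood at 1940 CPM (1556 to 2390) and 2156 CPM (1816 to 2541) in anti-CD40 tumours 1 and 2, against 4248 CPM (3225 to 5491) in the untreated tumour. Those cells held 0 and 1 Nr1h3 UMIs against 0, no Lpl UMI in any tumour, and 0 and 6 Apoe UMIs against 0. Cells without such markers had Fabp5 at 299 and 632 CPM against 264 CPM. Over all myeloid cells the level of Fabp5 sums cells with high levels, whose share was 11.2% and 5.38% against 3.16%, and cells with low levels.

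Lpl was uneven among treated cells. Cells with at least 2 thinned UMIs of monocyte markers, 126 of 419 in anti-CD40 tumour 1, held 253 of the 416 Lpl UMIs of its myeloid cells, at 1159 CPM (1021 to 1311), and cells with 0 such UMIs stood at 341 CPM (274 to 419). In anti-CD40 tumour 2 the levels were 348 CPM (261 to 456) and 285 CPM (253 to 319), whose intervals overlapped. In the untreated tumour they were 65.5 CPM (21.3 to 153) and 15.1 CPM (4.91 to 35.3). Nr1h3 stood at 156 CPM (108 to 218) with and 253 CPM (196 to 322) without monocyte markers in anti-CD40 tumour 1, and at 230 CPM (160 to 320) and 166 CPM (142 to 193) in anti-CD40 tumour 2. The direction for Nr1h3 differed between the treated tumours, and the intervals overlapped in both. Apoe was lower in monocyte-marked cells of each tumour, at 380 against 1774 CPM and 3082 against 5095 CPM in the treated tumours and 2881 against 6600 CPM in the untreated one.

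Within treated tumours Nr1h3 and Lpl were found together in part. Of 64 thinned cells with an Nr1h3 UMI in anti-CD40 tumour 2, 14 (21.9%, 12.5 to 34) also held an Lpl UMI, against 45 of 1199 (3.75%, 2.75 to 4.99) cells without. In anti-CD40 tumour 1 the shares were 4 of 28 (14.3%, 4.03 to 32.7) and 35 of 391 (8.95%, 6.31 to 12.2), whose intervals overlapped. Apoe was held by 10 of 59 (16.9%, 8.44 to 29) cells with an Lpl UMI in anti-CD40 tumour 2, against 703 of 1204 (58.4%, 55.5 to 61.2) cells without. In anti-CD40 tumour 1 the shares were 3 of 39 (7.69%, 1.62 to 20.9) and 86 of 380 (22.6%, 18.5 to 27.2), whose intervals overlapped. In the untreated tumour they were 5 of 6 (83.3%, 35.9 to 99.6) and 553 of 849 (65.1%, 61.8 to 68.3), in the opposite direction and with overlap. Of the untreated tumour, 2 cells held Nr1h3 and 6 held Lpl, none of them both. Cells of a tumour are not replicates, so these shares carry counting intervals and no test.

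In neutrophils none of 4 members tested passed (edgeR, where 0.442% of 2713 genes did), 1 of them, Plin2, had an unadjusted p under 0.05, and DESeq2 passed 0. Plin2 had 958 UMIs in 700 cells (1344 CPM, 1260 to 1432) and 385 UMIs in 215 cells (2231 CPM, 2013 to 2465) of anti-CD40 tumours 1 and 2. The untreated tumour gave 17 UMIs in 49 cells (724 CPM, 422 to 1160), whose interval lay below both. The log2 change of Plin2 was 1.89 ± 0.76 (edgeR, adjusted p = 0.368), and without pool 2 it passed (2.71, adjusted p = 0.0477). Within pool 1 the change was 2.71 and within pool 2 it was 1.3. The median change of all genes in this fit was 0.29 with TMM scaling and -0.28 with plain library sizes, so changes are to be read against it. Abca1 (109 and 162 CPM against 85.2 CPM) and Fabp5 (307 and 377 CPM against 170 CPM) were, like Plin2, higher in both treated tumours. That makes 3 of 4 members, where 32.3% of all genes tested were so placed, but 2 Abca1 and 4 Fabp5 UMIs made up the untreated values. For Fabp5, 1 cell of anti-CD40 tumour 2 held 20 of its 65 UMIs. The shares of thinned neutrophils with a Fabp5 UMI were 8.4% and 5.5% against 7.32%, and so not higher in both. Abcg1 was lower in both treated tumours, at 29.5 and 63.7 CPM against 85.2 CPM (21 and 11 UMIs against 2). It was the 1 of 4 members so placed, where 51.3% of all genes tested were lower in both. Counting intervals of both Abcg1 ratios included no change. Apoe stood at 5.61 and 57.9 CPM against 42.6 CPM (4 and 10 UMIs against 1).

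The neutrophil subsets named by the authors differed in Plin2 within each treated tumour, in the same order. In anti-CD40 tumour 1 Plin2 stood at 371 CPM (280 to 482) in N1a, 700 CPM (580 to 837) in N1b, 1087 CPM (951 to 1237) in N2, 2855 CPM (2544 to 3194) in N3 and 3416 CPM (3005 to 3868) in N5. In anti-CD40 tumour 2 it stood at 629, 966, 1182, 2280 and 4118 CPM in the same subsets. There N1a and N1b held 16 and 14 cells with 12 and 16 Plin2 UMIs, so their place in the order is uncertain. Intervals of neighbours overlapped for N3 and N5 in the first tumour, and for N1a, N1b and N2 in the second. Abca1 had its highest level in N3, at 337 CPM (236 to 467) and 318 CPM (189 to 503), and no UMI in 144 N1a cells. In anti-CD40 tumour 1 the N3 interval of Abca1 lay above those of the other 4 subsets, and in anti-CD40 tumour 2 it overlapped theirs. Fabp5 was highest in N5, at 480 CPM (334 to 668) and 871 CPM (623 to 1187), with overlap in both tumours. In anti-CD40 tumour 2, 1 N5 cell held 20 of the 40 Fabp5 UMIs, so that level leans on this cell and its interval is too narrow. Untreated subsets held at most 15 cells and at most 8 Plin2 UMIs each, and N4 held 4 cells in all, so neither was read. Since the subsets were made from these cells, their levels are a description. N1a made up 128 of 700 and 16 of 215 neutrophils in anti-CD40 tumours 1 and 2 and 0 of 49 in the untreated tumour, so the sum over neutrophils also moves with the subsets; the part of this in the Plin2 level was not tested.

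**Figure D4:**
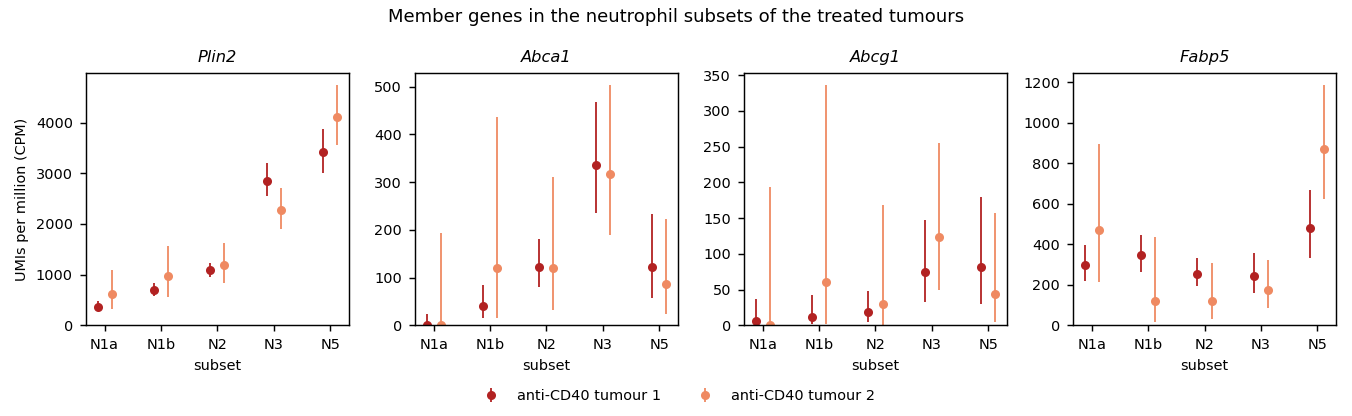
Level (CPM with exact Poisson 95% interval, linear axes from 0) of Plin2, Abca1, Abcg1 and Fabp5 in 5 neutrophil subsets of anti-CD40 tumours 1 and 2. Plin2 climbs in the order N1a, N1b, N2, N3, N5 in both tumours, from 371 to 3416 CPM and from 629 to 4118 CPM, while Abca1 is highest in N3.

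Elsewhere the members were sparse. In T cells Apoe had 0 UMIs in 48 cells and 2 UMIs in 135 cells of anti-CD40 tumours 1 and 2, against 65 UMIs in 150 cells of the untreated tumour. It was the 1 of 3 members tested that fell (log2 change -5.84 ± 0.6, edgeR, adjusted p = 2.99e-19), where 1.07% of 1865 genes fell. Macrophage genes moved with it: C1qa, C1qb and C1qc summed to 2 and 8 UMIs in treated and 116 UMIs in untreated T cells. The 19 untreated T cells that carried markers of a second cell type held 52 of the 65 Apoe UMIs. Without such cells the counts were 0 and 0 against 13, and Apoe was too low to be tested. In NK cells Apoe had 0 and 6 UMIs against 9 and was the 1 member tested. It did not pass (edgeR, unadjusted p = 0.26, adjusted p = 0.735), where 1.89% of 794 genes did, and macrophage markers stood at 0 and 49.1 CPM against 1244 CPM. Plin2 and Fabp5 did not pass in T cells.

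The change of myeloid cells was also set against that of neutrophils in 1 fit of both, blocked by tumour. None of 9 members passed (edgeR; 0 had an unadjusted p under 0.05, and 0.0779% of 7700 genes passed). The log2 difference, myeloid minus neutrophil change, of Plin2 was -1.45 ± 0.81 and that of Abca1 -2.02 ± 1.22 (adjusted p = 0.889 and 0.891), where the median over all genes was -1.83 (-0.74 with plain library sizes and -1.33 with RLE scaling). For Nr1h3, Lpl, Trem2 and Ch25h this fit has no use, since neutrophils held 1, 0, 0 and 0 UMIs.

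Genes of the wider lipid pathways were read from 8 lists of 112 genes in myeloid cells, chosen with earlier results of these data known. The median log2 change of all 7099 genes tested was 0.02. Of the 13 genes tested in the list of LXR targets, which counts Nr1h3 itself, 2 rose, and these were Nr1h3 and Lpl. The median of the LXR targets was 0.17 with and 0.01 without the members. Fasn, for fatty acid synthase, had a log2 change of -1.29 ± 0.58 (edgeR, adjusted p = 0.516) and Pltp, for a phospholipid transfer protein, 1.64 ± 1.06 (0.711). Nr1h2, the gene of LXR beta, stood at 83.9 and 83.9 CPM in treated and 70.2 CPM in untreated myeloid cells, and it was added here after its values were seen. Its log2 change was 0.28 ± 0.4 (edgeR, adjusted p = 0.876).

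None of 14 sterol synthesis and uptake genes passed (edgeR; 3 had an unadjusted p under 0.05, and DESeq2 passed 0). Their median change was -0.7, and 11 of 14 were lower in both treated tumours and 1 higher, where 37.1% of all genes tested were lower in both. Fdps, for farnesyl diphosphate synthase, had 13 and 17 UMIs (21.8 and 11.7 CPM) in anti-CD40 tumours 1 and 2, against 33 UMIs (57.9 CPM) in the untreated tumour. Its log2 change was -1.86 ± 0.5 (edgeR, adjusted p = 0.194). Dhcr7, for the last step of cholesterol synthesis, stood at 5.04 and 4.81 CPM against 21.1 CPM (-2.03 ± 1.15, adjusted p = 0.647). Of the other genes with an unadjusted p under 0.05, named after their values were seen, Cyp51 was lower (-1.7) and Mvd higher (1.72) in treated cells.

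None of 13 droplet and triglyceride genes passed (edgeR; 2 at an unadjusted p under 0.05, DESeq2 0), with a median of 0.46 and 9 of 13 higher in both treated tumours, where 34.8% of all genes tested were. Hilpda, for a droplet protein that inhibits triglyceride breakdown, stood at 408 and 1008 CPM against 277 CPM (1.42 ± 0.67, adjusted p = 0.605), and Dgat2, for an enzyme of triglyceride synthesis, at 63.8 and 20.6 CPM against 12.3 CPM (1.65 ± 0.76, adjusted p = 0.555). Of 8 oxysterol genes tested, 1 rose (Nr1h3) and 1 fell (Ch25h). Cyp27a1, for the enzyme that makes 27-hydroxycholesterol, stood at 1.68 and 10.3 CPM against 26.3 CPM and did not pass (-1.81 ± 0.95, adjusted p = 0.614), and neither did Rxra, the retinoid partner of LXR (0.79 ± 0.54, adjusted p = 0.718). Lpl was the 1 of 8 fatty acid and lipoprotein uptake genes and the 1 of 16 lipid-associated macrophage genes that rose. Among the macrophage genes Cd9, for a membrane tetraspanin, stood at 314 and 269 CPM against 96.5 CPM (1.61 ± 0.42, adjusted p = 0.176) and Itgax, for the integrin CD11c, at 183 and 199 CPM against 390 CPM (-1.0 ± 0.37, adjusted p = 0.408). Slc27a4, for a fatty acid transporter and 1 of the uptake genes, stood at 11.8 and 18.6 CPM against 10.5 CPM. None of 11 lysosomal and 10 fatty acid oxidation genes passed (edgeR; 0 and 0 at an unadjusted p under 0.05, DESeq2 0 and 0), with medians of 0.12 and 0.3. Lipa, for lysosomal acid lipase, stood at 114 and 142 CPM against 79.0 CPM, and Ctsl, for cathepsin L, at 453 and 916 CPM against 440 CPM. Of the oxidation genes, Cpt2, for a mitochondrial carnitine transferase, stood at 21.8 and 10.3 CPM against 7.02 CPM, and Ppargc1b, for a coactivator, at 0 and 4.12 CPM against 17.5 CPM.

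**Figure D5:**
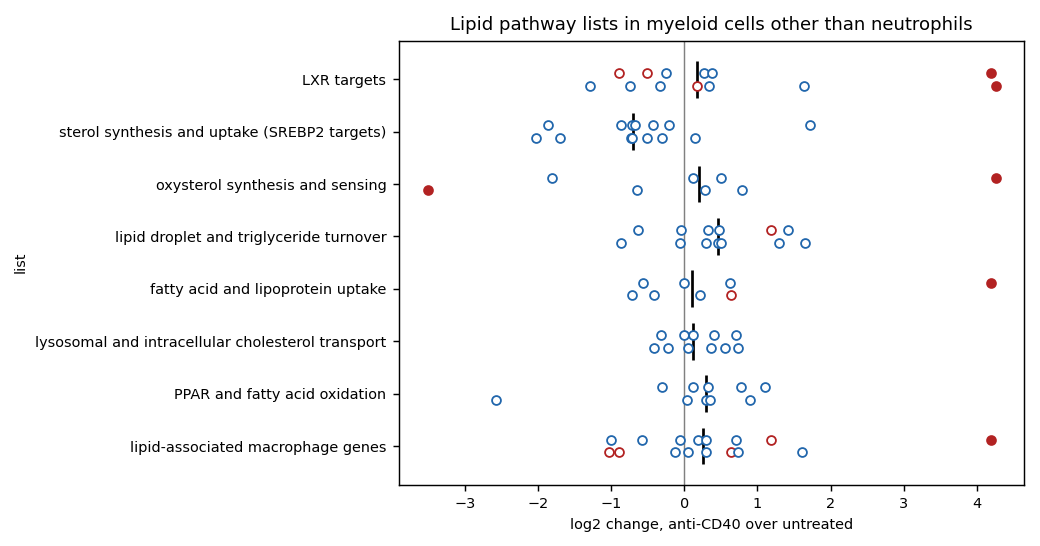
Log2 change, anti-CD40 over untreated, of every tested gene of 8 lipid pathway lists in myeloid cells other than neutrophils; red points are members of the 10 genes, blue points other genes, filled points passed adjusted p of 0.05, and the bar is the list median. Filled points are Nr1h3, Lpl and Ch25h, and the sterol list has its median at -0.7.

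Over the 12 libraries, the genes whose myeloid level was most like that of Nr1h3 (Pearson r of log2(CPM + 10), with libraries of a tumour sharing animal and depth) were Fpr2 (0.968), Itgam (0.962), Atp6v0c (0.954), Cd38 (0.949) and Fkbp5 (0.948). Fpr2, for a formyl peptide receptor, stood at 769 and 530 CPM in treated and 47.4 CPM in untreated cells. Among the members Lpl came first, at rank 22 (r = 0.918), then Plin2 at rank 38 (0.897), while Ch25h was at -0.92. These are the members whose treated and untreated libraries did not overlap. Their r largely restates that difference and is no measure of co-expression within a group. Apoe was at -0.605, Abca1 at -0.058 and Abcg1 at -0.35.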

How the data were processed

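Whole-number UMI counts per cell and gene were deposited by the authors, not normalised, in 4 sequencing pools, together with a deposited cell table of text labels (a unit of kind other) that gives animal, library, condition, cell type and neutrophil subset, per the file headers. Reads were handled with bcl2fastq and STAR on GRCm38, per the submitters' processing notes. No version, counter, annotation, cell filter or doublet step is given in the sources used here. The lowest cell held 180 UMIs.

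Cells were used as deposited, grouped by the authors' cell types, and their counts were summed per tumour (3 tumours). edgeR 4.0.16 in R 4.3.3 tested anti-CD40 over untreated sums by quasi-likelihood F test with TMM scaling, filterByExpr, robust fitting and Benjamini-Hochberg adjustment over all genes tested (threshold 0.05, two-sided). Per gene the p-values rest mostly on variance shared over genes. DESeq2 1.42.0, other scalings, no filter, thinned cells and left-out pools were alternatives. Of these, DESeq2, thinned cells and left-out pools were run for all myeloid cells and for neutrophils alone, and not for the C1q gates. Cells of a second type carried at least 3 UMIs of another class's markers, counted before thinning. The edgeR procedure was tested on simulated data. Descriptions used Python 3.11.15, numpy 2.4.6, scipy 1.17.1 and pandas 2.3.3. Libraries of 1 tumour were treated as technical repeats.

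The members and pathway lists were chosen with earlier results of these data known. Text names all members and, of each list, the genes that passed and the 2 with the largest absolute change, of which 1 is not reported here. Genes most like Nr1h3 are the 5 with the highest Pearson r. Members without UMIs in a class, or with too few to pass the filter on low counts, were not tested there.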

Additional observations from a re-analysis of the deposited data

Results flagged for a closer look

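Plin2 was lower in both treated tumours in NK cells and higher in both in myeloid cells, neutrophils and T cells. It passed no test over the whole classes of myeloid cells, neutrophils and T cells, and was too low to be tested in NK cells. It stood at 690 and 971 CPM in anti-CD40 tumours 1 and 2 against 377 CPM untreated in myeloid cells, at 1344 and 2231 CPM against 724 CPM in neutrophils, and at 208 and 93.5 CPM against 91.4 CPM in T cells. In NK cells it stood at 25.8 and 57.3 CPM against 129 CPM, values that rest on 1 and 7 UMIs against 3. The ratios to the untreated tumour were 0.201 (0.00383 to 2.5) and 0.445 (0.102 to 2.67) in NK cells, and 1.02 (0.351 to 3.16) in T cells of anti-CD40 tumour 2, all with intervals that include no change.

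Fabp5 was likewise higher in both treated tumours in myeloid cells (421 and 700 CPM against 372 CPM) and neutrophils (307 and 377 CPM against 170 CPM) and lower in both in T cells (115 and 112 CPM against 196 CPM). The T cell values rest on 5 and 12 UMIs against 15. In neutrophils the untreated value rests on 4 UMIs, and 1 cell of anti-CD40 tumour 2 held 20 of its 65 UMIs. For both genes the change of myeloid cells minus that of neutrophils did not pass (edgeR, adjusted p = 0.889 each). The differences from T cells or NK cells were not tested.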

How the results depend on the processing

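In myeloid cells 3 members passed, against 1 when the shallowest 10% of cells were dropped (Nr1h3), 0 without pool 2 and 1 without pool 4 (Nr1h3). In neutrophils 0 passed, against 1 without pool 2 (Plin2). In T cells 1 passed, against 0 without cells that carried markers of a second type, an alternative chosen after seeing the data. In C1q-negative cells 2 passed, against 0 with RLE scaling and 0 without a filter on low counts. The cause of the lost calls was not tested. Abcg1 changed sign in neutrophils without pool 2 (0.1, adjusted p = 0.988) and in the difference between cell types with plain library sizes (0.54, adjusted p = 1.0). Over all genes, 29 passed in myeloid cells, against 89 with plain library sizes, 141 without a filter, 14 with DESeq2, 71 in thinned cells, 4 without the shallowest 10%, and 1, 14 and 10 without pools 2, 3 and 4. In neutrophils 12 passed, against 7 with RLE scaling, 7 without a filter, 6 in thinned cells, 8 without the shallowest 10%, and 3, 25, 7 and 21 without pools 1 to 4. In NK cells 15 passed against 8 without a filter, in C1q-positive cells 145 against 89 without a filter, and in C1q-negative cells 48 against 1 with RLE scaling and 0 without a filter. Of 536 values of 59 results recomputed, 459 kept direction and side of the threshold or, in settings without a test, moved within a set limit. That limit was the standard deviation between the treated tumours, so it is wide where these disagree. Values of uncalled genes that lacked an adjusted p but kept direction count among the 459. No paired analysis was possible because the untreated group holds 1 tumour. With that tumour left out no comparison could be made, and the 6 untreated UMIs limit the precision of Nr1h3.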
